A study of Homo sapiens with 6 samples.

Results

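The genes described here encode the proteins that mark and license replication origins, open them, copy the DNA at the fork, join the new strands and supply deoxynucleotides. They were chosen by symbol: the genes of the deposited table that carry one of 44 named symbols, all of which were found, each once, among 57905 genes. All 44 passed the expression minimum of 1 FPKM (counts per kilobase of exonic length, scaled to the library's summed counts) in at least 3 libraries, as did 12784 genes in all. Their lowest level in any library was 2.70 FPKM (ORC4) and their lowest count 211 (POLE2).

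The RNA came from SKOV3, an established cell line of human ovarian cancer. There were 3 libraries from cells with an shRNA against CPT1A (genotype CPT1Ash, normal culture) and 3 from control cells (genotype WT, normal culture). CPT1A, in the outer mitochondrial membrane, joins long-chain fatty acids to carnitine for import and oxidation, and its role in lipid metabolism is the stated purpose. The labels mention no control hairpin, and the column tag sh2 of the shRNA libraries is not explained, so that carrying a hairpin and lowering CPT1A cannot be told apart. The 3 libraries of a group are called biological replicates, but whether each had its own knockdown is not stated. The p-values therefore judge the group difference only against the spread between these libraries. CPT1A itself was at 2.16, 2.00 and 1.96 FPKM in shRNA libraries 1 to 3, against 6.70, 8.06 and 8.0 FPKM in control libraries 1 to 3 (edgeR adjusted p = 3.3e-06).

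The libraries held 15740143 to 22271565 counts. Most epithelial markers were abundant: KRT8, KRT18, KRT19, KRT7, ERBB2, PAX8 and EPCAM each averaged above 25 FPKM in both groups. CDH1 averaged 2.67 FPKM in shRNA and 2.70 FPKM in control libraries, and MUC16 and WT1 lay under the minimum. Of the 8 tested epithelial markers 4 were lower (KRT19, KRT7, KRT8 and PAX8) and 0 higher. Over all 10 the summed level was 1101 to 1262 FPKM in shRNA and 1611 to 1972 FPKM in control libraries. No marker of fibroblasts (6 genes), endothelium (3 genes found) or leukocytes (6 genes) reached the minimum. The 6 fibroblast markers summed to 0.30 to 0.50 FPKM in shRNA and 1.88 to 2.06 FPKM in control libraries. The 3 endothelial markers summed to 0.34 to 0.59 FPKM in shRNA and 0.16 to 0.20 FPKM in control libraries. The 6 leukocyte markers summed to 0.70 to 0.92 FPKM in shRNA and 0.94 to 1.41 FPKM in control libraries, with CD3E at 0 in every library. The part of any of these in the results that follow was not tested.

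As background, a cell licenses its origins in G1 phase. The origin recognition complex (ORC) and CDC6 sit on the DNA, and CDT1 brings the ring-shaped MCM2-7 helicase, which is loaded but idle. Geminin (GMNN) then binds CDT1 and prevents a further round of loading. In S phase CDC45 and the GINS complex join the ring and it unwinds DNA. Primase with polymerase alpha lays primers, polymerases epsilon and delta extend them on the leading and lagging strands, and the sliding clamp PCNA, placed by the RFC complex, holds the polymerases on DNA. Many of these genes are targets of E2F transcription factors, and their mRNAs rise as cells enter S phase.

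Promoter letters are shown because many of these genes are known E2F targets. Promoters of 38 of the 44 genes were matched by symbol in the RefSeq table (GRCh38.p14, 250 bases before to 50 after a transcript start, 48 promoters). Searched on both strands, an E2F word (TTTGGCGC, TTTCCCGC, TTTGCCGC or TTTCGCGC) was in a promoter of 19 of 38 genes (50%), against 6.88% of 8520 tested genes with a promoter and 3.31% of all 35116 promoters. In the 40 or fewer bases below, read 5′ to 3′ on the gene's strand, capitals mark 1 E2F word each. In MCM6 another, GCGCGAAA, overlaps the marked one and is partly in lower case, and in MCM2, not shown, TTTCGCGC overlaps GCGCGAAA.
PCNA: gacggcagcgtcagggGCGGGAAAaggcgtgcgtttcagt
POLA2: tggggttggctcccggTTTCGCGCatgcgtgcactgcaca
POLE: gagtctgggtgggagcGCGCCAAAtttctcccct
MCM6: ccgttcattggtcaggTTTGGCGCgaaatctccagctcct
TYMS: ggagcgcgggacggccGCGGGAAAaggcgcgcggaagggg
These lie at chr20:5126658-5126697 (minus strand), chr11:65261893-65261932 (plus), chr12:132687343-132687376 (minus), chr2:135876510-135876549 (minus) and chr18:657598-657637 (plus). PCNA and POLA2 were lower in shRNA libraries, POLE was higher, and MCM6 and TYMS did not pass the test. Among genes that changed, 4 of 8 with a promoter held the word, and among those that did not, 15 of 30. A CCAAT box (CCAAT) was in 23 of 38 genes (60.5%), against 43.2% of tested genes. The cell cycle word TTTGAA or TTCGAA was in 2 of 38 (MCM6 and RRM1, 5.26%), against 15% of tested genes. A match is a description of these letters and shows no binding.

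The replication genes that passed the test went in both directions. In edgeR's quasi-likelihood test with Benjamini-Hochberg adjustment over all 12784 genes, 7 were higher in shRNA libraries (RRM1, GINS1, GINS4, POLE, RPA1, MCM4 and POLD3) and 5 were lower (PCNA, ORC4, RPA3, RFC4 and POLA2). These 12 of 44 (27.3%) stood beside 27.4% of all tested genes called, with 15.9% higher and 11.4% lower beside 13.8% and 13.7%. The median log2 change of the 44 was 0.02, against -0.01 for all tested genes, and 25 of 44 were positive. The median size of the log2 change, whatever its sign, was 0.21 for the 44 genes and 0.29 for all tested genes. FPKM of the groups did not overlap for 14 of 44 genes, the 12 called genes with ORC1 and RPA2 (31.8%), against 42.6% of all tested genes. Neither share is above the background. FPKM lack the TMM factors by which edgeR scales libraries (1.02 to 1.03 in shRNA and 0.96 to 1.00 in control libraries). That scaling lowers shRNA values relative to control values. Overlap was not counted after it and can differ where the FPKM of the groups lie close. Without control replicate 1 the number called was 4 (14.7% of all genes then called) and without shRNA replicate 2 it was 5 (16.1%). Without control replicate 2 it was 16 (39.5%), and without shRNA replicate 1 it was 10 (22.0%). In bulk RNA a different share of cells in S phase and a different amount of RNA per cell cannot be told apart.

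**Figure D1:**
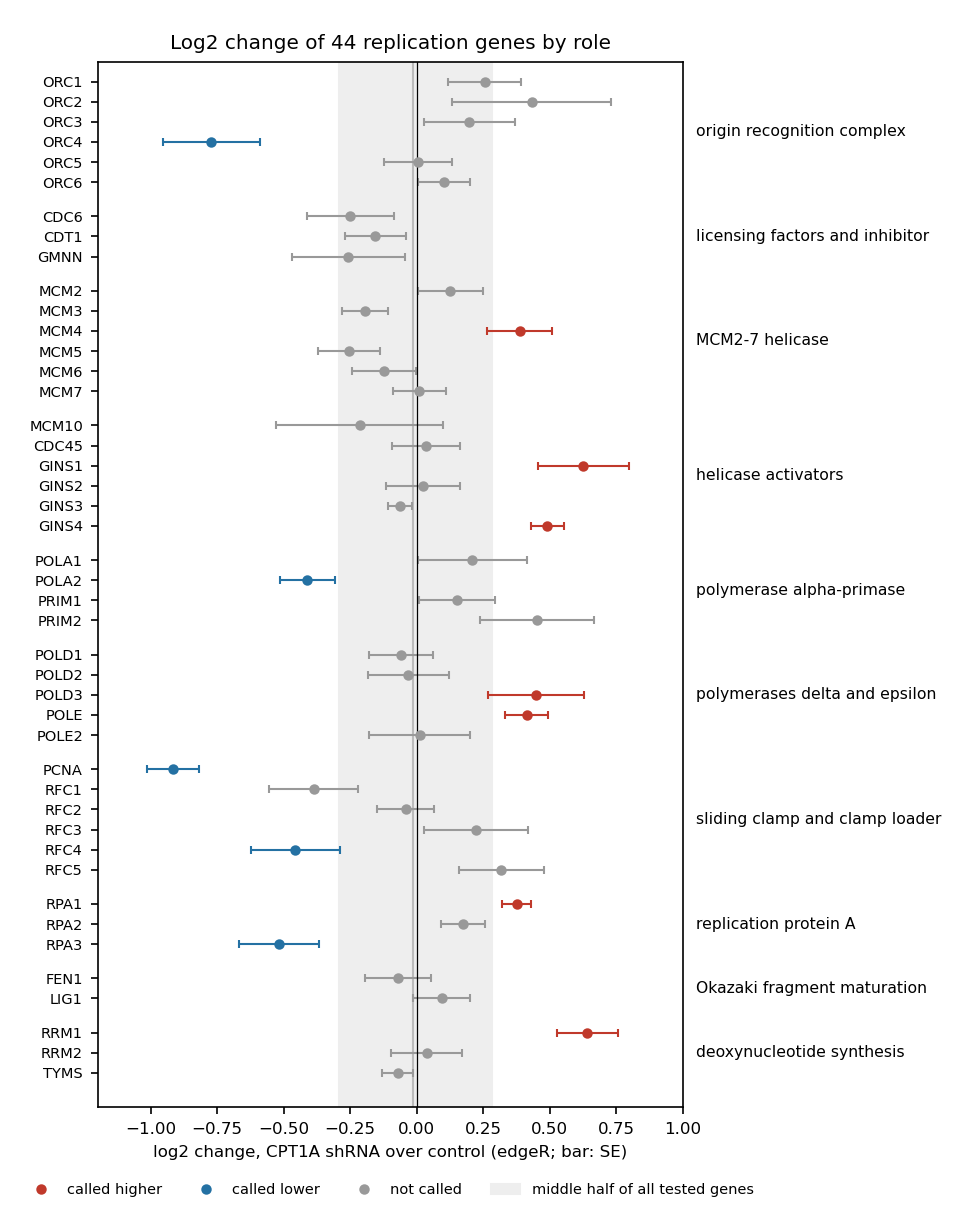
Log2 change (shRNA over control, edgeR; bars are SE, n = 3 libraries each) of 44 replication genes in rows grouped by role, coloured by call, with the interquartile range of all tested genes as a grey band. PCNA at -0.92 and ORC4 at -0.77 lie farthest to the left and RRM1 at 0.64 and GINS1 at 0.63 farthest to the right, with complexes that hold genes on both sides of 0.

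PCNA, the sliding clamp, had the largest change of the set and the smallest p. Its level was 121, 140.4 and 147 FPKM in shRNA libraries 1 to 3, against 249.8, 239 and 246 FPKM in control libraries 1 to 3. Every shRNA library lay far below every control library. The means were 136 ± 13.9 and 244.7 ± 5.6 FPKM in shRNA and control libraries (SD, n = 3 each), and the log2 change was -0.92 ± 0.10 (SE), a 1.89-fold decrease (edgeR adjusted p = 0.00012). The call held in all 15 alternatives, with edgeR, DESeq2 or limma adjusted p from 1.93e-11 to 0.00224 and log2 changes from -0.98 to -0.73. PCNA (ENSG00000132646) spans 5095599 to 5107272 of chromosome 20, minus strand, in the authors' coordinates and overlaps no other tested gene. Its 3 pseudogene rows held no count. Despite the decrease it was the most abundant of the 44 genes per length in every library. It took 9.95% to 10.4% of their summed FPKM in shRNA libraries and 17.7% to 18.6% in control libraries.

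The clamp loader RFC, whose subunits open the PCNA ring and close it around DNA, had 1 of 5 subunits lower. RFC4, a small subunit, was at 13.2, 16.7 and 18.3 FPKM in shRNA libraries, against 22.9, 21.4 and 18.6 FPKM in control libraries. The groups nearly touch, at 18.29 FPKM in shRNA library 3 and 18.55 FPKM in control library 3. The log2 change was -0.46 ± 0.17 (SE; edgeR adjusted p = 0.0355, from 0.0171 to 0.173 over 15 alternatives). Leaving out control replicate 1 ended the call (edgeR adjusted p = 0.173), as did leaving out shRNA replicate 1 (0.14) or shRNA replicate 2 (0.0906). It was also lost with total counts alone (edgeR adjusted p = 0.0721), in both limma fits (adjusted p = 0.0713 and 0.0753) and with offsets for exonic length (edgeR adjusted p = 0.0754). RFC4 overlaps EIF4A2 on the other strand, which was at a log2 change of -0.26 and not called. RFC1, the large subunit, had a log2 change of -0.39 (edgeR adjusted p = 0.0850) and RFC5 of 0.32 (edgeR adjusted p = 0.101). Without control replicate 3 RFC1 was called lower (edgeR adjusted p = 0.0276, from 0.0199 to 0.272 over 15 alternatives), and without control replicate 2 RFC5 was called higher (edgeR adjusted p = 0.0354, the lowest of a range up to 0.388). RFC5 overlaps WSB2, which rose (log2 change 0.40). RFC2 and RFC3 were at -0.04 and 0.22 and were not called.

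The flap nuclease FEN1, which acts on PCNA, was at 77.7, 89.4 and 97.4 FPKM in shRNA and 88.3, 82.1 and 93.4 FPKM in control libraries. The ranges overlap throughout (log2 change -0.07 ± 0.12, edgeR adjusted p = 0.697). FEN1 overlaps FADS2 on the same strand and TMEM258 on the other, both of which fell. LIG1, the ligase that seals the nicks, averaged 13.2 ± 0.7 FPKM in shRNA and 11.8 ± 1.1 FPKM in control libraries (edgeR adjusted p = 0.597). The ratio of PCNA to FEN1 was 1.55, 1.57 and 1.51 in shRNA libraries, against 2.83, 2.91 and 2.63 in control libraries. The ratio of PCNA to the mean of the 5 RFC genes was 6.67, 6.64 and 6.30 in shRNA libraries, against 12.4, 11.4 and 13.2 in control libraries. Neither ratio overlapped between the groups, and shRNA library 1, the lowest in PCNA, was not the lowest in either. The ratio of CDT1 to GMNN was 1.31, 1.03 and 0.802 in shRNA libraries, against 0.827, 0.8004 and 1.26 in control libraries, and its groups overlap. It was the only one of the 7 ratios computed that did. These pairs were chosen after the values were seen, and the ratios carry no test.

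**Figure D2:**
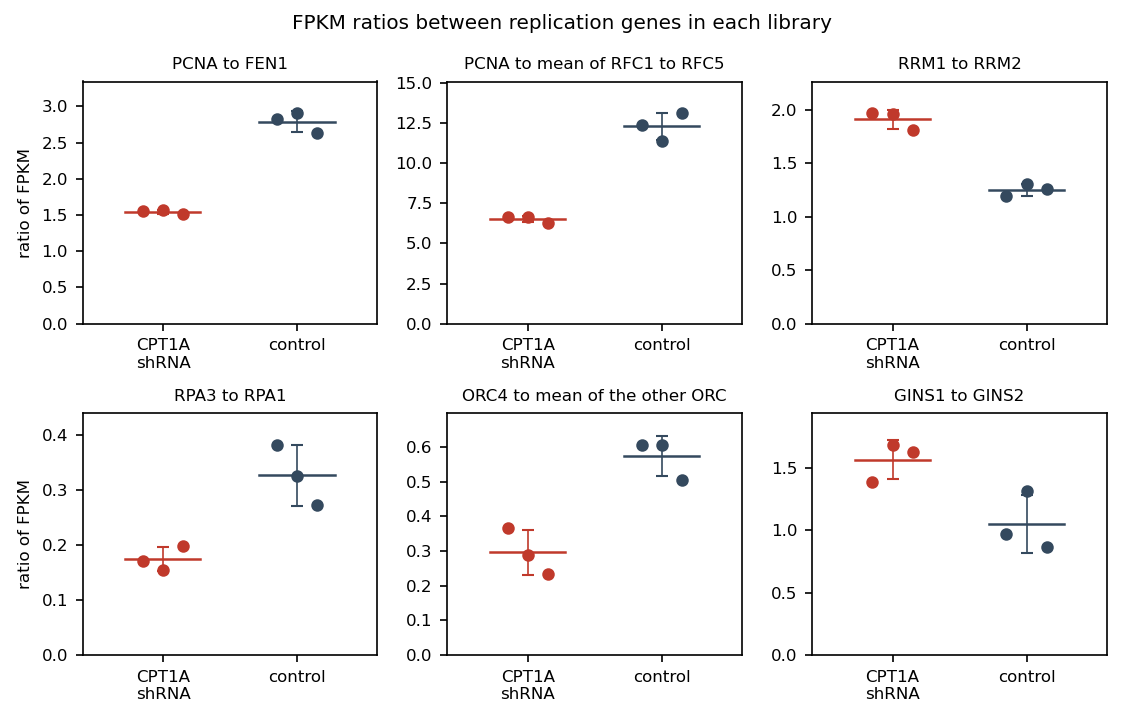
FPKM ratios between genes of the replication set in each library (points), with group mean (line) and SD (bar), n = 3 each, shRNA at left and control at right. The ratio of PCNA to FEN1 is 1.51 to 1.57 in shRNA and 2.63 to 2.91 in control libraries, and the 6 ratios drawn are those without overlap, the ratio of CDT1 to GMNN being left out.

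RRM1 rose most. It encodes the large catalytic subunit of ribonucleotide reductase, the enzyme that makes deoxynucleotides. RRM1 was at 67.1, 80.4 and 81.6 FPKM in shRNA libraries, against 45.1, 52.1 and 42.7 FPKM in control libraries, with no overlap. The log2 change was 0.64 ± 0.11 (SE), a 1.56-fold increase (edgeR adjusted p = 0.00143). It was called in all 15 alternatives (highest adjusted p 0.0151). RRM1 (ENSG00000167325) lies on chromosome 11, plus strand, from 4115937 to 4160106. RRM2, the small subunit that carries the tyrosyl radical, was at 34.0, 41.0 and 45.04 FPKM in shRNA and 37.7, 39.8 and 33.9 FPKM in control libraries, and the groups overlap (log2 change 0.04 ± 0.13, edgeR adjusted p = 0.846). The RRM1 to RRM2 ratio was 1.97, 1.96 and 1.81 in shRNA libraries, against 1.197, 1.31 and 1.26 in control libraries. TYMS, which makes thymidylate, was at 89.0, 93.5 and 99.0 FPKM in shRNA and 95.8, 92.5 and 93.1 FPKM in control libraries (log2 change -0.07 ± 0.06, edgeR adjusted p = 0.635).

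In the origin recognition complex ORC4 alone passed the test. This subunit of the ORC ring was at 3.58, 2.96 and 2.70 FPKM in shRNA libraries, against 4.92, 6.01 and 4.11 FPKM in control libraries. The groups do not overlap, and the level is the lowest per length of the 44 genes in shRNA libraries. The log2 change was -0.77 ± 0.18 (SE), a 1.71-fold decrease (edgeR adjusted p = 0.00358), and the call held in all 15 alternatives (highest adjusted p 0.0255). ORC4 (ENSG00000115947) lies on chromosome 2, minus strand, from 148687968 to 148779147, and overlaps ACVR2A, which was not called. The other 5 subunits had log2 changes of 0.00 (ORC5) to 0.43 (ORC2), none called. ORC2 had the widest spread, at 6.85, 8.02 and 9.98 FPKM in shRNA and 5.68, 7.83 and 4.08 FPKM in control libraries, and without control replicate 2 it was called higher (edgeR adjusted p = 0.0131, the lowest of a range up to 0.408). ORC1, which belongs to the ATPase core of the complex, was not called (edgeR adjusted p = 0.199). Before TMM scaling its groups did not overlap, at 13.1 to 14.8 FPKM in shRNA and 9.25 to 12.4 FPKM in control libraries. ORC4 relative to the mean of the other ORC genes was 0.365, 0.289 and 0.235 in shRNA libraries, against 0.607, 0.607 and 0.506 in control libraries.

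The licensing factors were not called. CDC6, the ATPase that loads the helicase with ORC, was at 23.6, 29.7 and 33.5 FPKM in shRNA and 31.3, 36.8 and 30.4 FPKM in control libraries (log2 change -0.25 ± 0.16, edgeR adjusted p = 0.195). CDT1, which brings the helicase to ORC, was at 26.6, 25.5 and 25.2 FPKM in shRNA and 26.0, 24.8 and 31.0 FPKM in control libraries (log2 change -0.15 ± 0.12, edgeR adjusted p = 0.377). GMNN, the inhibitor of CDT1, averaged 25.5 ± 5.6 FPKM in shRNA and 29.01 ± 3.8 FPKM in control libraries (log2 change -0.26 ± 0.21, edgeR adjusted p = 0.260). All 3 genes had overlapping groups.

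Of the 6 subunits of the MCM2-7 helicase, MCM4 passed. It was at 57.8, 66.9 and 68.6 FPKM in shRNA libraries, against 41.4, 53.7 and 45.8 FPKM in control libraries, and the groups do not overlap. The log2 change was 0.39 ± 0.12 (SE; edgeR adjusted p = 0.0244, from 0.00522 to 0.138 over 15 alternatives). It was not called without control replicate 1 (edgeR adjusted p = 0.138), shRNA replicate 2 (0.114) or shRNA replicate 3 (0.0944), and with offsets for exonic length (0.0745). MCM2 was at 52.7, 56.2 and 58.2 FPKM in shRNA and 44.5, 45.6 and 55.5 FPKM in control libraries. MCM3 was at 71.8, 79.1 and 82.2 FPKM in shRNA and 82.0, 81.5 and 90.3 FPKM in control libraries. In FPKM, before TMM scaling, these 2 subunits overlapped between the groups, with log2 changes of 0.13 and -0.19. MCM5 was at 24.2, 25.7 and 26.2 FPKM in shRNA and 28.4, 25.8 and 32.1 FPKM in control libraries. MCM6 was at 37.2, 44.97 and 47.8 FPKM in shRNA and 42.3, 49.1 and 43.5 FPKM in control libraries. MCM7 was at 70.3, 76.7 and 77.4 FPKM in shRNA and 68.3, 65.9 and 77.6 FPKM in control libraries. None of these 5 was called (edgeR adjusted p from 0.122 for MCM5 to 0.953 for MCM7). MCM5 was called lower without control replicate 2 (edgeR adjusted p = 0.0169, the lowest of a range up to 0.384).

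Among the factors that switch the ring on, the GINS complex was uneven. GINS1 was at 23.3, 27.8 and 32.9 FPKM in shRNA libraries, against 17.0, 19.6 and 15.2 FPKM in control libraries. GINS4 was at 14.2, 14.7 and 15.2 FPKM in shRNA libraries, against 9.12, 10.6 and 10.2 FPKM in control libraries. In both genes every shRNA library was above every control library. GINS1 rose 1.54-fold (log2 change 0.63 ± 0.17, SE; edgeR adjusted p = 0.00593) and was called in all 15 alternatives (highest adjusted p 0.0375). GINS4 rose 1.41-fold (log2 change 0.49 ± 0.06, SE; edgeR adjusted p = 0.00748), a call that ended without control replicate 1 (edgeR adjusted p = 0.0576, the highest of a range from 0.00116). GINS2 and GINS3 had log2 changes of 0.02 and -0.06 and were not called, although GINS2 overlaps GSE1 on the other strand, which rose (log2 change 0.94). GINS3 averaged 8.70 ± 0.28 FPKM in shRNA and 8.64 ± 0.16 FPKM in control libraries. The ratio of GINS1 to GINS2 was 1.39, 1.69 and 1.63 in shRNA libraries, against 0.969, 1.31 and 0.867 in control libraries. CDC45, which joins GINS on the ring, and MCM10, which aids the step, had log2 changes of 0.03 and -0.21 and were not called. MCM10 ranged from 4.34 to 8.12 FPKM within the shRNA group.

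Polymerase alpha-primase, which starts every strand, held POLA2 as its changed gene. POLA2, the accessory subunit, was at 11.7, 11.95 and 13.6 FPKM in shRNA libraries, against 15.9, 14.6 and 16.6 FPKM in control libraries, without overlap. The log2 change was -0.41 ± 0.10 (SE; edgeR adjusted p = 0.0238, from 0.0051 to 0.124 over 15 alternatives). It was not called without control replicate 1 (edgeR adjusted p = 0.105), control replicate 3 (0.0591), shRNA replicate 1 (0.0876) or shRNA replicate 2 (0.124). The catalytic subunit POLA1 (log2 change 0.21) and the primase subunits PRIM1 (0.15) and PRIM2 (0.45) lay on the other side of 0 and were not called, PRIM2 having an edgeR adjusted p = 0.0745. PRIM2 was called higher without control replicate 2 (edgeR adjusted p = 0.0362), without shRNA replicate 1 (0.0208) and by DESeq2 (adjusted p = 0.0474), in a range up to 0.275. PRIM1 overlaps NACA on the same strand, which fell (log2 change -0.55).

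POLE, the catalytic subunit of leading-strand polymerase epsilon, was at 9.83, 10.1 and 9.10 FPKM in shRNA libraries, against 6.35, 6.97 and 7.41 FPKM in control libraries. The groups do not overlap (log2 change 0.41 ± 0.08, SE; edgeR adjusted p = 0.0137). Neither without control replicate 1 (edgeR adjusted p = 0.0884) nor without shRNA replicate 2 (0.0932) was POLE called. With offsets that take out the trend on exonic length, the log2 change was 0.05 (edgeR adjusted p = 0.7998, the highest of a range from 0.00573). Its exonic length in the authors' table, 16605 bases, was the longest of the 44 genes. Its partner POLE2 had a log2 change of 0.01. POLD3, an accessory subunit of lagging-strand polymerase delta, was at 7.80, 10.3 and 10.8 FPKM in shRNA libraries, against 6.64, 7.74 and 5.75 FPKM in control libraries. The groups nearly touch before TMM scaling, at 7.80 FPKM in shRNA library 1 and 7.74 FPKM in control library 2. Whether they stay apart after that scaling was not counted. POLD3 had the highest p of the 12 calls (log2 change 0.45 ± 0.18, SE; edgeR adjusted p = 0.0466, from 0.0166 to 0.173 over 15 alternatives). The call ended without control replicate 1 (edgeR adjusted p = 0.143), control replicate 3 (0.0967), shRNA replicate 2 (0.170) or shRNA replicate 3 (0.173), and in 3 other settings. The catalytic subunit POLD1 and POLD2 had log2 changes of -0.06 and -0.03 and were not called.

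**Figure D3:**
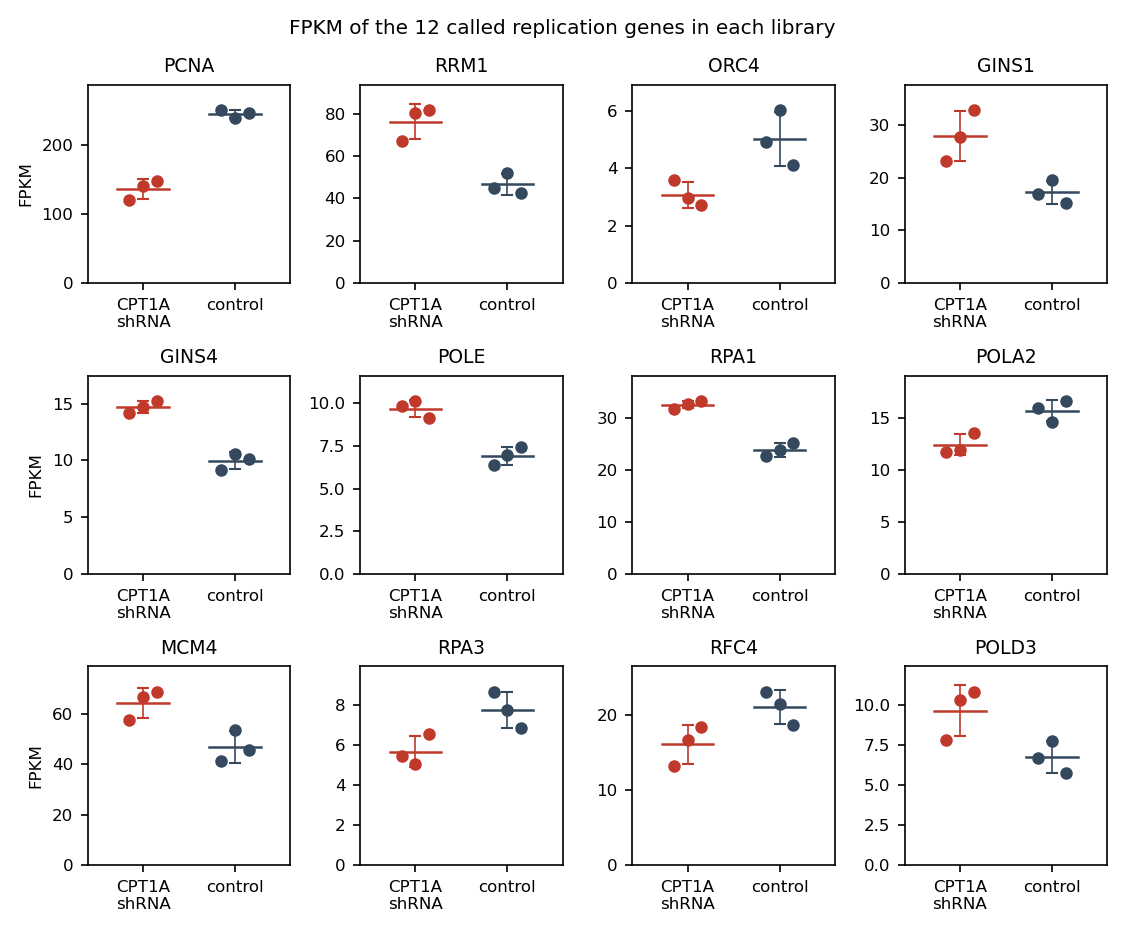
FPKM in each library (points) of the 12 replication genes called by edgeR, ordered by p, with group mean (line) and SD (bar), n = 3 each, shRNA at left and control at right. PCNA falls to 121 to 147 FPKM in shRNA libraries, against 239 to 249.8 FPKM in control libraries, whereas the groups of RFC4 and POLD3 almost meet.

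Replication protein A, which coats single-stranded DNA, was split. RPA1, the largest subunit, was at 31.8, 32.7 and 33.2 FPKM in shRNA libraries, against 22.6, 23.8 and 25.1 FPKM in control libraries. RPA3, the smallest, was at 5.43, 5.03 and 6.54 FPKM in shRNA libraries, against 8.63, 7.74 and 6.84 FPKM in control libraries. The groups of neither gene overlap. RPA1 rose (log2 change 0.38 ± 0.05, SE; edgeR adjusted p = 0.0165, from 0.00547 to 0.0921 over 15 alternatives) and RPA3 fell (log2 change -0.52 ± 0.15, SE; edgeR adjusted p = 0.0299, from 0.0123 to 0.159). RPA1 was not called without control replicate 1 (edgeR adjusted p = 0.0921), shRNA replicate 2 (0.0906) or shRNA replicate 3 (0.0605). RPA3 was not called without control replicate 1 (edgeR adjusted p = 0.159), shRNA replicate 1 (0.0892) or shRNA replicate 2 (0.154), with total counts alone (0.0572), and in both limma fits (adjusted p = 0.0512 and 0.0508). RPA1 overlaps SMYD4 on the other strand, which rose (log2 change 0.48) at a mean of 2.51 FPKM. RPA3 overlaps RPA3-AS1, which was not called (log2 change -0.31). RPA2 was at 39.1 to 45.8 FPKM in shRNA and 34.6 to 36.7 FPKM in control libraries and was not called (edgeR adjusted p = 0.285). The ratio of RPA3 to RPA1 was 0.171, 0.154 and 0.197 in shRNA libraries, against 0.382, 0.325 and 0.272 in control libraries.

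Many of these genes shared an order of libraries within the shRNA group. By CPM (the library's share of counts, scaled by the TMM factors that edgeR uses), 34 of 44 genes were lowest in shRNA library 1 (77.3%, against 38.3% of all tested genes) and 35 of 44 were highest in shRNA library 3 (79.5%, against 36.8%). The summed level of the 44 genes was 1212, 1355 and 1438 FPKM in shRNA libraries 1 to 3, against 1340.4, 1349 and 1358 FPKM in control libraries 1 to 3. These FPKM sums carry no TMM factor, and on that unscaled level the control sums lay inside the shRNA range. MCM10 was at 4.34, 7.22 and 8.12 FPKM and GMNN at 20.3, 24.8 and 31.4 FPKM in the shRNA libraries. ORC4 went the other way, with its highest shRNA value in library 1. By CPM 4 of 44 genes were highest there (9.09%, against 37.9% of all tested genes): ORC4, POLD1, CDT1 and ORC3. In control libraries no replicate was so uniform, with 7, 17 and 20 of 44 genes lowest in libraries 1, 2 and 3. The replicates have no order, and what set shRNA library 1 apart was not tested.

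**Figure D4:**
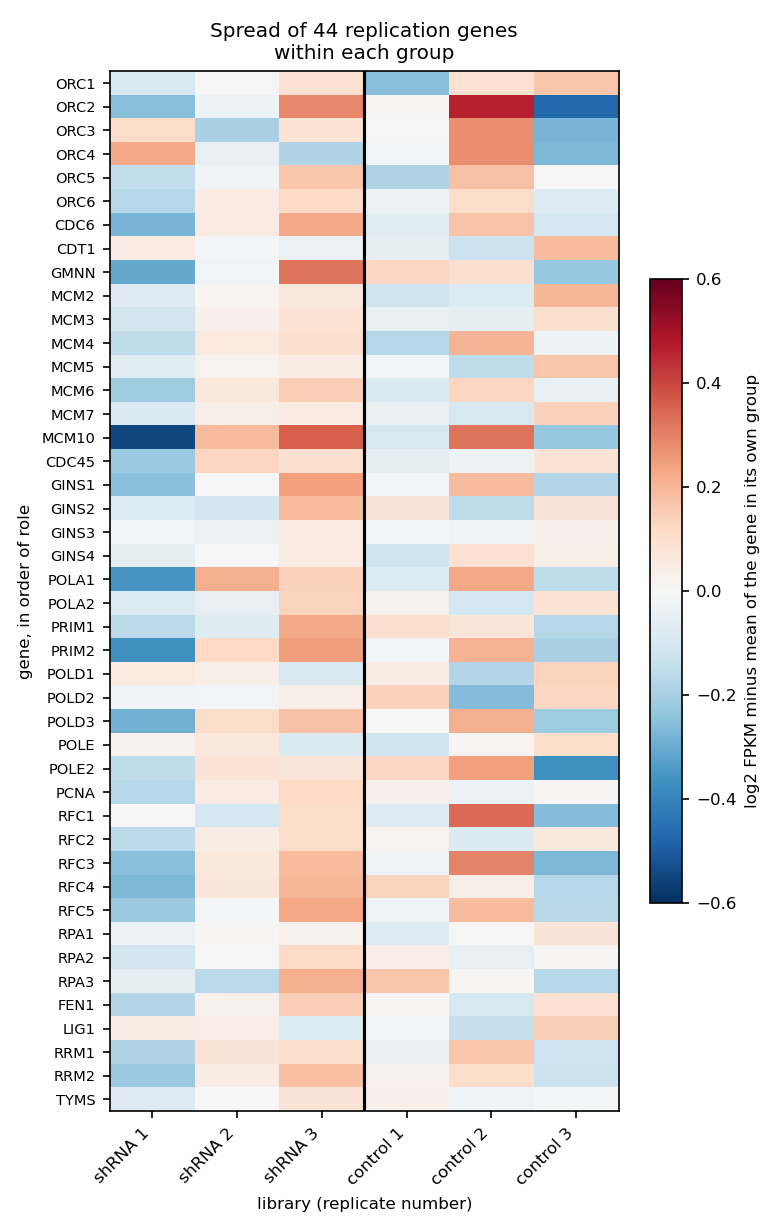
Log2 FPKM of 44 replication genes (rows, in order of role) minus the gene's mean in its own group, for each library (columns), red above and blue below that mean. Most rows are blue in shRNA library 1 and red in shRNA library 3, where by TMM-scaled CPM 34 of 44 genes were lowest and 35 of 44 highest, while control columns are mixed.

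The 3′ ends of the transcripts were searched for a pair of 7-base words, ATGTCCA and TGTCCAA, that earlier work on these same fold changes had picked as most common in lowered genes. The shares below describe that choice and test nothing. Annotated 3′ UTRs (GENCODE 29) of 6 of 44 genes held such a word (13.6%), against 18.0% of 10770 tested genes with a 3′ UTR. These were ORC4 and POLA2 (lower), GINS4, POLE and RPA1 (higher) and ORC5 (not called). PCNA, RPA3 and RFC4 held none. By call, 3 of 7 higher, 2 of 5 lower and 1 of 32 other genes held a word, beside 17.5% of higher, 24.6% of lower and 16.8% of uncalled genes over all tested genes with a 3′ UTR. The longer run ATGTCCAA was in CPT1A and ORC4, both lower, and in GINS4, which was higher. The longer run was not counted over all tested genes. Capitals mark the match in the sites of CPT1A and of the 2 lowered members. Sites of the 3 higher members and of ORC5 are not shown.
CPT1A: tattgtacATGTCCAAggggggtg
ORC4: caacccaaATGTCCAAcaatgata
POLA2: tttgacctATGTCCAgagaaggc
The 3 stretches come from transcripts of genes on chromosomes 11, 2 and 11.

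Other genes of replication were read from the same fit in 7 lists, beside 27.4% called and a median log2 change of -0.01 over all tested genes. Of 24 tested partners of helicase loading and activation 3 were higher and 0 lower (median log2 change 0.12). They were DDB1 and CUL4A, of the ubiquitin ligase that destroys CDT1 in S phase (log2 changes 0.46 and 0.46), and MCM3AP (0.40). The list had 9 calls without control replicate 2 and 1 without shRNA replicate 2. Of 21 fork accessory genes 3 were higher and 2 lower (median 0.02). The histone-fold subunit POLE3 of polymerase epsilon averaged 72.7 ± 7.1 FPKM in shRNA and 49.4 ± 2.9 FPKM in control libraries. RNASEH1 (log2 change 0.60), an RNA-DNA hybrid nuclease, and the topoisomerase TOP3A (0.51) also rose. SLBP (-0.34), which binds histone mRNA, and the topoisomerase TOP2B (-0.41) fell. Before TMM scaling the FPKM of TOP2B overlapped between the groups (edgeR adjusted p = 0.0474). These 5 calls were 1 without control replicate 1, 8 without control replicate 2, 2 without shRNA replicate 1 or 3, and 3 without shRNA replicate 2. Of 17 checkpoint and fork protection genes TIMELESS was the only call (log2 change 0.29, edgeR adjusted p = 0.0432; median of the list 0.10). That list had 0 calls in 7 of 15 alternatives, among them those without control replicate 1, shRNA replicate 2 or shRNA replicate 3, and 6 calls without control replicate 2.

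Of 12 genes of chromatin assembly behind the fork, 1 was higher and 2 lower (median log2 change -0.06). ASF1B, a histone chaperone, averaged 27.6 ± 2.0 FPKM in shRNA and 44.8 ± 4.6 FPKM in control libraries (log2 change -0.77 ± 0.12, SE; edgeR adjusted p = 0.000813). DNMT1, which copies DNA methylation, rose (log2 change 0.38), and its recruiter UHRF1 fell (-0.38). Before TMM scaling the groups of UHRF1 overlap, at 17.2 FPKM in shRNA library 3 and 17.03 FPKM in control library 1. The list had 1 call without control replicate 1 or shRNA replicate 2 and 5 without control replicate 2. Of 29 nucleotide supply genes GART (0.37), of purine synthesis, was higher and the thymidine kinase TK1 (-0.38) was lower, with a list median of 0.15. The groups of TK1 overlap before TMM scaling, at 94.4 FPKM in shRNA library 2 and 93.1 FPKM in control library 2 (edgeR adjusted p = 0.0451). The nucleotide list had 0 calls without control replicate 1, shRNA replicate 2 or shRNA replicate 3, 10 without control replicate 2 and 4 without control replicate 3.

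Of 28 tested regulators (E2F, pocket protein, G1 cyclin and CDK inhibitor genes) 7 were higher and 4 lower, with a median log2 change of 0.17. The CDK inhibitor CDKN1A, whose protein also binds PCNA, was at 8.31, 9.28 and 6.24 FPKM in shRNA libraries, against 1.98, 2.09 and 1.85 FPKM in control libraries (edgeR adjusted p = 2.5e-05). MYBL2, itself an E2F target, averaged 110.3 ± 7.8 FPKM in shRNA and 215 ± 20 FPKM in control libraries (log2 change -1.04, edgeR adjusted p = 6.33e-05). The activator E2F1 fell (log2 change -0.56, edgeR adjusted p = 0.00496), as did the inhibitor gene CDKN1C (-0.95). Also higher were E2F7 (0.89), LIN52 (0.60), CDKN1B (0.56), CCND3 (0.45), FOXM1 (0.35) and TFDP1 (0.32). MYC was lower too (-0.45). The 11 calls were 4 without control replicate 1, 18 without control replicate 2, 6 without shRNA replicate 2 and 5 without shRNA replicate 3. Of 20 proliferation and mitosis genes 6 were higher and 1 lower, with a median log2 change of 0.30. TPX2, a spindle assembly factor, averaged 160.7 ± 8.1 FPKM in shRNA and 104.1 ± 7.1 FPKM in control libraries, and KIF20A and AURKA, a mitotic kinesin and kinase, rose by 0.57 and 0.56 on the log2 scale. ANLN, a scaffold of the contractile ring, rose by 0.61. Of the mitotic list NUSAP1 fell (-0.51). The 7 calls of that list were 3 without control replicate 1 and 13 without control replicate 2. The mitotic list summed to 1148 to 1194 FPKM in shRNA and 908 to 961 FPKM in control libraries, without overlap. The 7 lists held 24, 21, 17, 12, 29, 28 and 20 tested genes. Over these lists 32 genes were called, in a fit that called 27.4% of all tested genes. Without control replicate 1 the number was 11 (14.7% of all genes then called) and without shRNA replicate 2 it was 17 (16.1%). Without shRNA replicate 3 it was 18 (20.6%) and without control replicate 2 it was 69 (39.5%). Calls over all genes thus moved in the same direction.

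**Figure D5:**
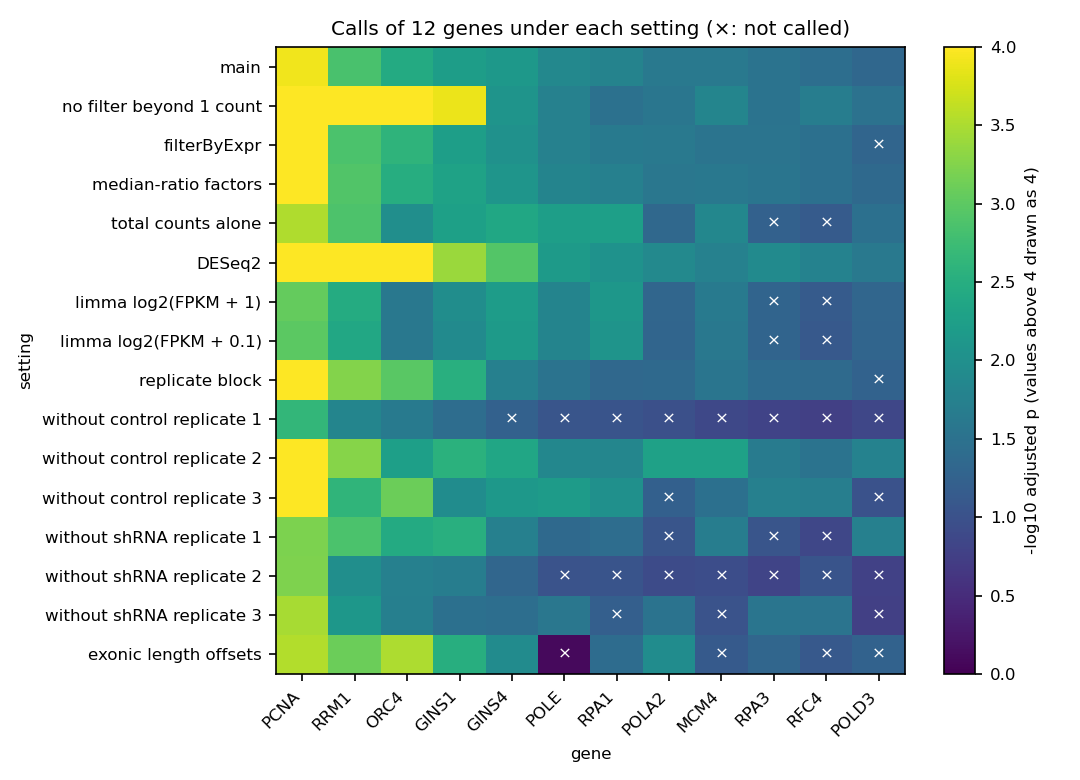
Adjusted p (colour, -log10, capped at 4) of the 12 called replication genes (columns) as reported (top row) and in 15 alternatives (other rows), with a cross where a gene was not called. PCNA, RRM1, ORC4 and GINS1 carry no cross, and the row without control replicate 1 has 8.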

How the data were processed

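Whole-number read counts and FPKM values for each gene were deposited by the authors in a single table of 6 libraries. The submitters' processing notes list HISAT2 2.0.1, HTSeq 0.6.1, cutadapt 1.9.1 and DESeq2, with no roles, and the mouse build mm8, although identifiers are human. The build of the coordinates and the strand of the reads are not stated. Poly(A) isolation and an rRNA kit are given as alternatives in the labels. Deposited FPKM equalled the count per kilobase of exonic length, scaled to summed counts, within 0.005. Counts of the 12784 expressed genes were fitted with edgeR 4.0.16 in R 4.3.3 (TMM scaling, quasi-likelihood F test), with Benjamini-Hochberg adjustment over all of them, and a gene was called under 0.05. SE refer to group means of log2 CPM (prior count 2). Alternatives used DESeq2 1.42.0 and limma 3.58.1 among others.

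Members and lists were chosen with earlier results of these data known. Values in every library are given for called members and for a set of others. Up to 4 called genes by smallest p were named per list. NUSAP1, TOP2B, the further called regulators, overlapping genes and ratios were picked after values were seen. Protein sequences were not used here. Replicate libraries differed beyond counting error (chi-square per degree of freedom at least 7.74). The procedure was tested on simulated counts.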

Additional observations from a re-analysis of the deposited data

How the results depend on the processing

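Among the 44 replication genes 7 were called higher and 5 lower. Leaving out 1 library at a time gave 2 to 10 higher and 2 to 6 lower, with all genes called higher at 968 to 2539 (against 1762) and lower at 914 to 2511 (against 1747), and companion genes at 11 to 69 (against 32). The median log2 change of the 44 was -0.02 to 0.08 in these fits and 0.01 to 0.10 in the other 9 alternatives. The number of members called lower was 3 with total counts alone, 3 with limma on log2(FPKM + 1) and 3 with limma on log2(FPKM + 0.1), where RFC4 and RPA3 were not called. The replicate numbers were not treated as pairs because no label says that they pair. Same-numbered libraries had correlations of deviations of -0.07, 0.01 and -0.25. With the replicate block 11 of 44 were called, all among the 12, POLD3 being lost (edgeR adjusted p = 0.0552), and 3262 genes in all. DESeq2 called 13, the 12 and PRIM2. Offsets for exonic length, added after seeing the data because log2 change rose with exonic length across genes (Spearman 0.25, genes not being independent), called 12, of which 8 were shared: RFC4, POLD3, POLE and MCM4 gave way to RFC5, RPA2, MCM5 and RFC1. The cause of these changes was not tested. Genes outside the 12 were called in 12 gene-by-setting cases, among RFC5, ORC2, PRIM2, MCM5, RFC1 and RPA2. No call changed sign in any alternative. The share of higher among called genes was 50.2%, and 61.6% with total counts alone, 60.5% with limma on log2(FPKM + 1) and 60.7% on log2(FPKM + 0.1). Every member had at least 211 counts in every library.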
